A study of Mus musculus with 12 samples.

Results

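The thyroid hormone axis was followed through 8 genes in messenger RNA sequencing of the mouse hypothalamus: Trh, Dio2, Slco1c1, Crym, Thra, Thrb, Klf9 and Hr. They were taken by symbol from a table of 32494 genes, and all 8 were found in it. Each of the 12 libraries came from a male mouse with floxed Smc3 that had been given tamoxifen, and the tissue was collected 5 weeks after that treatment. An age of 8 weeks is also given, but not the step it refers to. The WT group held 7 mice without the Camk2a-cre/ERT2 transgene and the cKO group 5 mice with it, and sample titles in both groups carry the word control. That transgene makes a tamoxifen-activated recombinase from the Camk2a promoter, which is active in forebrain excitatory neurons, so that endothelial cells, astrocytes and tanycytes of both groups are expected to lack it. The study asked what loss of Smc3, a core subunit of the cohesin ring, does in adult neurons, and its title names weight and metabolism.

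Thyrotropin-releasing hormone is made by neurons of the paraventricular nucleus and drives the pituitary to release thyrotropin, which drives the thyroid gland. The gland releases mainly thyroxine (T4), which crosses into brain through transporters such as that encoded by Slco1c1 and is converted to the active hormone T3 by the deiodinase encoded by Dio2, in astrocytes and in the tanycytes that line the third ventricle. T3 acts through the nuclear receptors encoded by Thra and Thrb, which raise genes such as Klf9 and Hr and hold down Trh itself.

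The libraries held 17126005 to 24010001 reads, apart from WT 1 with 68744112. Smc3 went against the labels. Levels are in CPM, the reads of a gene scaled to the library total after a normalization factor. Smc3 was at 76.8 to 85.7 CPM in the libraries labelled WT and at 116 to 144 CPM in those labelled cKO. Every direction below therefore refers to the label and not to a measured loss of Smc3. Markers of hypothalamic regions also differed between libraries of the same label. Oxt and Avp, the oxytocin and vasopressin genes of paraventricular and supraoptic neurons, were at no more than 2.33 and 6.46 CPM in WT 4, WT 5, cKO 12 and cKO 13, and at 69.5 CPM or more for Oxt and 29.01 CPM or more for Avp in the 8 other libraries. Rax, a defining tanycyte gene, reached at most 0.533 CPM, and Agrp of the arcuate nucleus at most 1.24 CPM. Other genes of their lists were higher. Of 12 tanycyte genes, 10 reached a mean of 1 CPM, and the summed level was 110 to 133 CPM (WT) and 111 to 123 CPM (cKO). Of 14 hypothalamic genes, 13 reached that mean, all but Agrp. Their list summed to 79.0 to 653 CPM (WT) and 172 to 732 CPM (cKO). Genes of the adjoining thalamus were present throughout, with Tcf7l2 at 114 to 307 CPM. The summed level of 10 thalamic markers was 1068 to 1856 CPM in the libraries labelled WT and 762 to 1187 CPM in those labelled cKO, and 5 of the 10 were lower in the limma test described below, where 7.6% of all tested genes were lower. In bulk tissue, fewer cells of a type and less RNA per cell cannot be told apart.

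Of the 8 genes, Hr fell in the libraries labelled cKO, and no other member passed the test. Group differences were tested with limma on log2(CPM + 1), over the 15359 genes whose mean reached 1 CPM, with Benjamini-Hochberg adjustment over all of them. Crym lay under that minimum, so 7 members were tested, 1 passed an adjusted p-value of 0.05, and it was lower. Over all tested genes 14.1% passed (7.6% lower), so the members' share was near the background. The median log2 fold change of the 7 was 0.071, against 0.0092 over all tested genes. Group ranges overlapped for all 8 members, and over all tested genes 6.73% had separate ranges.

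**Figure D1:**
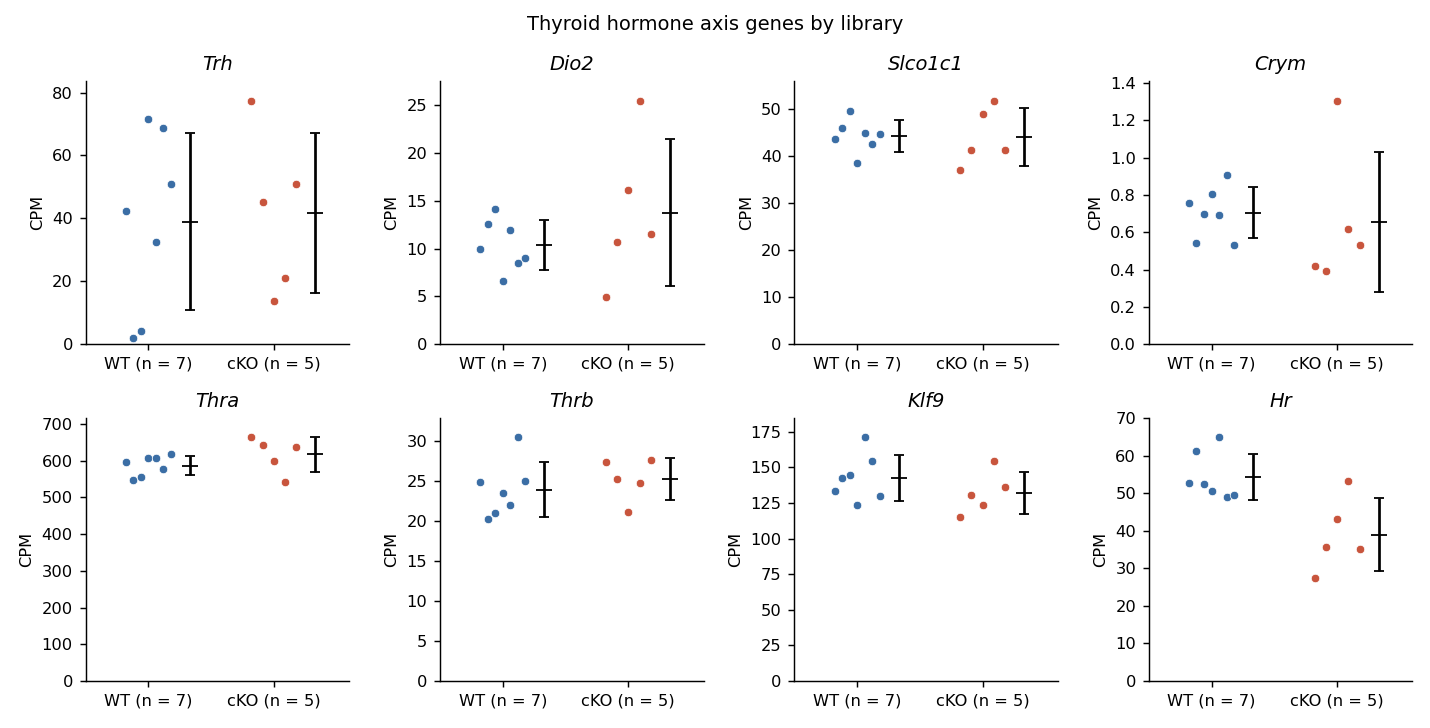
CPM of the 8 members in each library (points, WT in blue and cKO in red, by label), with the mean and SD of each group as a black bar, on linear axes from 0. Trh spreads from 2.02 to 71.7 CPM in the libraries labelled WT and from 13.8 to 77.5 CPM in those labelled cKO, Hr lies lower in 4 of the 5 libraries labelled cKO than in any labelled WT, and the remaining genes overlap widely.

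Trh encodes the precursor of thyrotropin-releasing hormone. It was at 42.2 CPM in WT 1, 2.02 in WT 4, 4.23 in WT 5, 71.7 in WT 6, 32.6 in WT 7, 68.8 in WT 11 and 50.9 in WT 15. Among the libraries labelled cKO it was at 77.5 CPM in cKO 8, 45.1 in cKO 9, 13.8 in cKO 12, 21.1 in cKO 13 and 51.1 in cKO 14. The groups overlapped almost fully, and the spread lay within them. The highest library held 38.3 times the level of the lowest, the widest span of the 8 members. The group means were 38.9 ± 28.1 CPM (SD, n = 7) and 41.7 ± 25.4 CPM (SD, n = 5), a ratio of 1.07. The log2 fold change was 0.53 (SE 0.78, 95% interval -1.15 to 2.22, limma adjusted p-value 0.686), an interval too wide to place the group difference. This fold change moved with single libraries, from 0.026 without WT 4, 0.16 without WT 5 and 0.25 without cKO 8 to 0.86 without cKO 12. The edgeR quasi-likelihood test on recovered reads gave 0.096.

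The 4 lowest Trh values were in WT 4, WT 5, cKO 12 and cKO 13. Those were also the 4 lowest libraries of 4 of the 7 paraventricular markers, Oxt, Avp, Crh and Otp. For the other markers, Sim1, Pou3f2 and Sst, they were not, and Sim1 had cKO 12 among its 4 highest. The pattern was not confined to the paraventricular list. Of the 14 hypothalamic genes 4 were lowest there, Oxt, Avp, Otp and Fezf1, and 10 were not. The summed level of all 14 was 79.0 to 243 CPM in those libraries and 369 CPM or more in the others. Otp, a homeobox gene needed for paraventricular neurons, was at 11.8 to 25.2 CPM in those libraries and reached 106 CPM in cKO 8. The same 4 libraries were the lowest of 2.71% of all tested genes. The summed level of 7 paraventricular markers, of which Sim1 was higher by limma and 6 did not pass (14.3% called, against 14.1% of all tested genes), was 114 to 635 CPM in the libraries labelled WT and 114 to 587 CPM in those labelled cKO. With the mean of the paraventricular markers in the model, Trh differed by 0.69 on the log2 scale (limma adjusted p-value 0.209). Without the 4 libraries lowest in Oxt, Trh differed by 0.14 (limma adjusted p-value 0.749). Both fits were added after seeing the data. With the thalamic markers in the model Trh differed by 0.69 (limma adjusted p-value 0.746). With the thalamic and hypothalamic markers it differed by 0.11 (limma adjusted p-value 0.926). The part of these markers in the Trh values was not tested beyond these fits. By Pearson's r of log2(CPM + 1) centred on the group means over the 12 libraries, the genes most like Trh of 15358 compared were Dlx1 (r 0.964, Spearman's rho 0.972), Elk1 (r 0.962) and Sytl4 (r 0.962). Dlx1 is a homeobox gene of GABAergic neurons, and like Trh it had its 4 lowest values in the libraries just named. These are the highest of many correlations and are given as a description.

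**Figure D2:**
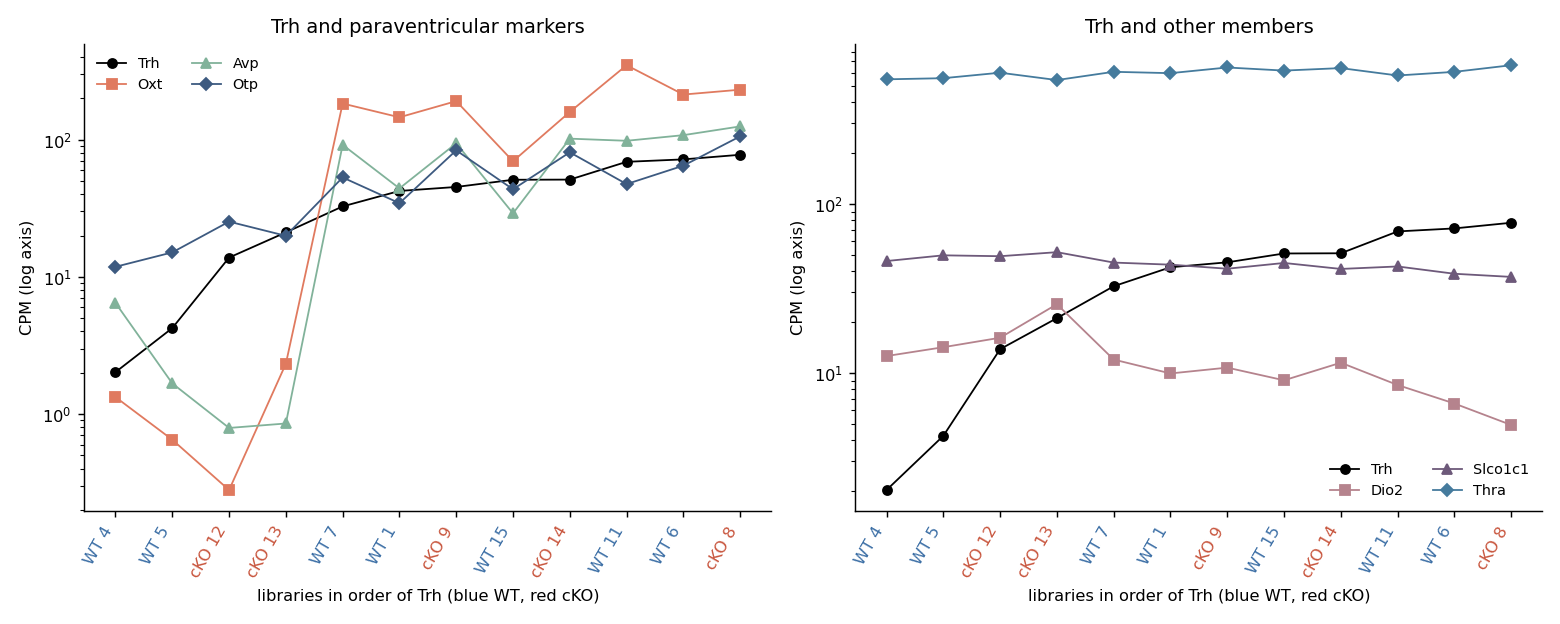
CPM on a log axis in the 12 libraries, placed in order of their Trh level (library names in blue for WT and red for cKO). Left, Oxt, Avp and Otp lie lowest in the 4 libraries with the lowest Trh. Right, Dio2 and Slco1c1 are highest in those same 4 libraries, while Thra varies little.

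Because Trh is repressed by T3 through its promoter and Dio2 is raised by cyclic AMP, the 250 bases before the start of each gene are shown. They come from RefSeq on GRCm38.p6, where 5 of the 8 members matched (Thra, Crym and Hr did not). The motifs searched, on both strands, were AGGTCA, the hexamer that a thyroid hormone receptor recognises, a direct repeat of it with a 4-base gap written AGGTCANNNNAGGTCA, and the cyclic AMP response element TGACGTCA. Matches are in capitals. The Trh stretch lies on the minus strand at chr6:92244651-92244900 and the Dio2 stretch on the minus strand at chr12:90739039-90739288.
Trh: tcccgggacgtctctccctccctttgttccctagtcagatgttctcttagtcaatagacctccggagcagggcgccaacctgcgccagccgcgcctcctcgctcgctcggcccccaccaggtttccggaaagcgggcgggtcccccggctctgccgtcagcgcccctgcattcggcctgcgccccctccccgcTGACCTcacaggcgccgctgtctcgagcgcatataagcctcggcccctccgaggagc
Dio2: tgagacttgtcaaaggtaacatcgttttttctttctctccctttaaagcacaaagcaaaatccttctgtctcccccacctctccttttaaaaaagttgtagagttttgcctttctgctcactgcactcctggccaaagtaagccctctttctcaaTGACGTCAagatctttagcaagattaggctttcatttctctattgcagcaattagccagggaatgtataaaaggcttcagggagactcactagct
The Trh stretch held 1 hexamer, on the opposite strand as TGACCT, from position -57 to position -52 relative to the start. The Dio2 stretch held 1 cyclic AMP response element, from position -95 to position -88. Of 32851 promoter windows of the same length, 14.02% held the hexamer, 1.55% the cyclic AMP response element and 0.0152% the direct repeat, which none of the matched members held. One of the Thrb windows also held the hexamer, and the Klf9 and Slco1c1 windows held none of the motifs. These matches are letters in a window and were not measured as bound sites.

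Dio2 encodes the type 2 deiodinase, which makes T3 from T4. It was at 9.91 CPM in WT 1, 12.6 in WT 4, 14.2 in WT 5, 6.58 in WT 6, 11.98 in WT 7, 8.47 in WT 11 and 9.03 in WT 15. It was at 4.91 CPM in cKO 8, 10.7 in cKO 9, 16.1 in cKO 12, 25.5 in cKO 13 and 11.5 in cKO 14. The groups overlapped, with the lowest and the highest library both labelled cKO. The means were 10.4 ± 2.65 CPM (SD, n = 7) and 13.8 ± 7.68 CPM (SD, n = 5). The log2 fold change was 0.24 (SE 0.29, 95% interval -0.38 to 0.86, limma adjusted p-value 0.609). It was -0.011 without cKO 13 and 0.53 without cKO 8 (limma adjusted p-value 0.133 for the latter). With the thalamic and hypothalamic markers in the model it was 0.51 (limma adjusted p-value 0.278). On recovered reads edgeR gave 0.41 (adjusted p-value 0.387) and DESeq2 0.40 (adjusted p-value 0.447). The 4 highest Dio2 values were in cKO 13, cKO 12, WT 5 and WT 4, the libraries lowest in Trh, which were the 4 highest of 3.83% of tested genes.

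Slco1c1 encodes OATP1C1, the T4 transporter of brain capillaries and astrocytes. Its lowest, median and highest values were 38.6, 44.8 and 49.7 CPM in the libraries labelled WT. In those labelled cKO it was at 37.0 CPM in cKO 8, 41.4 in cKO 9, 49.1 in cKO 12, 51.8 in cKO 13 and 41.3 in cKO 14. The ranges covered each other closely, and the means were 44.3 ± 3.35 CPM (SD, n = 7) and 44.1 ± 6.14 CPM (SD, n = 5). By limma the groups differed by -0.015 on the log2 scale (SE 0.080, 95% interval -0.19 to 0.16, adjusted p-value 0.925). As for Dio2, its 4 highest values were in cKO 13, WT 5, cKO 12 and WT 4. The gene most like it over the libraries was Slc1a2 (r 0.964), the main glutamate transporter of astrocytes, followed by Adipor2 (r 0.953), an adiponectin receptor that was also the gene most like Dio2 (r 0.959), and Foxn3 (r 0.949). For Dio2 the next were Abcf2 (r 0.959) and Gm19439 (r 0.957).

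Markers of the cells that make Dio2 and Slco1c1 were read beside them, where 14.1% of all tested genes passed. Of 10 astrocyte genes none passed limma's threshold, with 1 at an unadjusted p-value under 0.05 and 0 called by edgeR or DESeq2. Their summed level was 3030 to 3609 CPM in the libraries labelled WT and 3184 to 3855 CPM in those labelled cKO, and 9 of the 10 had a positive log2 fold change (median 0.12). Of 10 endothelial genes none passed it either, with 1 at an unadjusted p-value under 0.05 and 0 called by edgeR or DESeq2, at 395 to 471 CPM against 434 to 487 CPM, and again 9 of 10 had a positive log2 fold change (median 0.11). Of 10 tested tanycyte genes 1 was lower, Slc17a8, which neurons also express. Of the 10 astrocyte genes, 3 (Aqp4, Aldh1l1 and S1pr1) also had their 4 highest values in WT 4, WT 5, cKO 12 and cKO 13, whereas Slc1a3 had its 4 lowest there and 6 had neither. All 6 genes of the oligodendrocyte list, Mog and Mobp among them, had their 4 highest values in those libraries, as did 2 of the 10 endothelial genes and none of the 12 tanycyte genes. Of the 18 genes of the T3-responsive list, described below, 5 did so: Mbp, Nefh, Sema7a, Aldh1a1 and Ppargc1a. Over all tested genes 3.83% were highest and 2.71% lowest in those 4 libraries.

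Crym encodes mu-crystallin, which binds T3 in the cytosol. It was at 0.534 to 0.909 CPM in the libraries labelled WT, with a median of 0.698. It was at 0.420 CPM in cKO 8, 0.392 in cKO 9, 1.31 in cKO 12, 0.617 in cKO 13 and 0.533 in cKO 14. These levels rested on 8 to 52 reads per library, which is near what counting can resolve, and the groups overlapped. Fitted without the CPM minimum, Crym differed by -0.066 on the log2 scale (limma adjusted p-value 0.772). The authors' deposited table gave -0.12.

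Thra and Thrb encode the T3 receptors. Thra was the most abundant member, with 548, 596 and 617 CPM as the lowest, median and highest values in the libraries labelled WT. It was at 664 CPM in cKO 8, 644 in cKO 9, 600 in cKO 12, 543 in cKO 13 and 639 in cKO 14, so the range of the libraries labelled cKO held that of the others. On the log2 scale the groups differed by 0.071 (SE 0.053, 95% interval -0.042 to 0.18, limma adjusted p-value 0.383). Over single mice left out, Thra ranged from 0.044 without cKO 8 to 0.12 without cKO 13, and with the thalamic and hypothalamic markers in the model it was 0.018. Thra had the narrowest span of the 8, with the highest library at 1.22 times the lowest. Its 3 lowest values were in cKO 13, WT 4 and WT 5. The genes most like it were Lrp10 (r 0.973), Pcdh8 (r 0.962) and Sfrp1 (r 0.958). The receptor and non-receptor isoforms of Thra share most of their exons and were counted together. In GENCODE M21 the 3′ end of Thra shares 263 exonic bases with Nr1d1 on the opposite strand, and the strand setting of the counting is not given in the sources used here. Nr1d1, the clock repressor REV-ERB alpha, was at 77.0 to 115 CPM in the libraries labelled WT and 64.0 to 78.5 CPM in those labelled cKO (log2 fold change -0.41, SE 0.081, adjusted p-value 0.00836 by limma). Nr1d1 passed in 25 of 26 alternative fits, that with the thalamic and hypothalamic markers in the model among them (-0.34, adjusted p-value 0.0356 by limma), but not in that with the thalamic markers (-0.31, 0.0980).

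Thrb was at 20.2, 23.5 and 30.5 CPM (lowest, median, highest) in the libraries labelled WT. In those labelled cKO it was at 27.4 CPM in cKO 8, 25.3 in cKO 9, 21.1 in cKO 12, 24.8 in cKO 13 and 27.7 in cKO 14, all within the WT range. Its log2 fold change was 0.083 (SE 0.094, 95% interval -0.12 to 0.28, limma adjusted p-value 0.589). Over single mice left out, Thrb ranged from 0.046 without WT 4 to 0.14 without cKO 12 and without WT 11, and with the thalamic markers in the model it was 0.19. WT 11 was the highest library, and WT 4, WT 5 and cKO 12 were the lowest. The genes most like it were Fam174b (r 0.975), Cep83os (r 0.953) and Ddn (r 0.934), the last encoding dendrin of dendrites and synapses.

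Klf9 and Hr are T3-responsive genes that act on transcription, Klf9 as a zinc finger repressor and Hr (hairless) as a corepressor of nuclear receptors. Klf9 was at 124, 142 and 171 CPM (lowest, median, highest) in the libraries labelled WT. It was at 115 CPM in cKO 8, 131 in cKO 9, 124 in cKO 12, 154 in cKO 13 and 136 in cKO 14, with 4 of these 5 inside the WT range. Between the groups the log2 fold change was -0.11 (SE 0.083, 95% interval -0.29 to 0.067, limma adjusted p-value 0.388). Over single mice left out, Klf9 ranged from -0.17 without cKO 13 to -0.063 without cKO 8. The direction depended on the fit, since with the mean of the thalamic markers in the model it was 0.084. The genes most like Klf9 were Rhou (r 0.944), Rgs7bp (r 0.937) and Rab6b (r 0.934).

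Hr was at 52.8 CPM in WT 1, 61.3 in WT 4, 52.5 in WT 5, 50.7 in WT 6, 64.9 in WT 7, 49.1 in WT 11 and 49.6 in WT 15. It was at 27.4 CPM in cKO 8, 35.8 in cKO 9, 43.1 in cKO 12, 53.4 in cKO 13 and 35.3 in cKO 14. Of the libraries labelled cKO 4 lay below every library labelled WT, and cKO 13 lay among them. The means were 54.4 ± 6.19 CPM (SD, n = 7) and 39.0 ± 9.79 CPM (SD, n = 5), a ratio of 0.716. The log2 fold change was -0.50 (SE 0.13, 95% interval -0.77 to -0.22, limma adjusted p-value 0.0240). The two-sided exact permutation test over every split of the libraries gave a p-value of 0.00758, or 0.0551 after adjustment over all tested genes, of which 11.1% passed that test. The edgeR quasi-likelihood test on recovered reads, which passed 14.4% of genes, gave -0.48 (adjusted p-value 0.0305) and the authors' deposited table, with 4.94% of its genes under an FDR of 0.05, gave -0.48 (FDR 0.0130). In both, and by DESeq2 with 18.9% of genes passing, Hr was the only member past the threshold.

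The call for Hr depended on single libraries and on whether thalamic markers were in the model. Without cKO 9 the limma adjusted p-value was 0.0533 (log2 fold change -0.48, with 9.76% of all genes passing), and without cKO 14 it was 0.0550 (-0.47, 9.46%). Adding the mean of the thalamic markers to the model gave 0.153 (-0.44, 4.41%), and adding those of the thalamic and hypothalamic markers gave 0.124 (-0.39, 8.94%). Hr passed without WT 1 (adjusted p-value 0.0452 by limma, 7.55% of genes), with all genes above 0 (0.0473, 4.86%), with sample weights (0.000883, 33.4%) and with the mean of the paraventricular markers in the model (0.00433, 21.0%). Prkcd, a thalamic marker, was at 79.1 to 266 CPM in the libraries labelled WT and 35.2 to 124 CPM in those labelled cKO. The summed level of the 10 thalamic markers was 883 CPM in cKO 8, 1038 in cKO 9, 762 in cKO 12, 1105 in cKO 13 and 1187 in cKO 14. The part of these markers in the Hr difference was not tested beyond these fits. Without the 4 libraries lowest in Oxt, Hr differed by -0.69 (limma adjusted p-value 0.00995, with 10.3% of genes passing). That omission takes out cKO 13, the library labelled cKO that lay within the WT range of Hr, so a larger difference was built in. This fit and that with the paraventricular markers were added after seeing the data. The genes most like Hr within the groups were Gpsm2 (r 0.930), Enpep (r 0.927) and Cables2 (r 0.927).

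Levels were compared between members per kilobase of merged exon, with lengths from GENCODE M21. In the libraries labelled WT, Thra stood highest at 127 ± 5.83 CPM per kb (SD, n = 7). Klf9 at 29.6 ± 3.36 and Trh at 28.1 ± 20.3 CPM per kb followed, and their ranges overlapped. The Trh range, 1.46 to 51.8 CPM per kb, also overlapped those of Slco1c1, Hr, Thrb and Dio2, so its place above them holds for the mean. Slco1c1 at 8.55 ± 0.646 and Hr at 7.86 ± 0.894 CPM per kb overlapped as well. Thrb at 3.23 ± 0.465, Dio2 at 1.79 ± 0.455 and Crym at 0.208 ± 0.0400 CPM per kb were apart from each other. In the libraries labelled cKO the order was the same except that the mean of Trh, 30.1 ± 18.4 CPM per kb (SD, n = 5), stood above that of Klf9, 27.4 ± 3.07. The Dio2 range there, 0.844 to 4.38 CPM per kb, overlapped that of Thrb, 2.85 to 3.74.

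Other genes of the axis were taken from a list of 36 for the processing and breakdown of the hormone precursor, thyrotropin, transport, deiodination and the coregulators of the receptors. Of these 32 were tested, while Cga, Tshr, Dio1 and Dio3 fell short of the CPM minimum. By limma 2 were higher, 3 were lower and 27 did not pass. That is 15.6% of the tested genes, against 14.1% of all, with a median log2 fold change of -0.024. Whatever their test, 19 of the 32 had a negative log2 fold change, as did 7292 of all 15359 tested genes.

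Of the transport genes on the list, Slc7a5, the large neutral amino acid transporter LAT1 that also carries thyroid hormones, was at 89.6 ± 6.20 CPM (SD, n = 7) and 79.1 ± 3.77 CPM (SD, n = 5). The Slc7a5 ranges overlapped, and it was lower by limma (log2 fold change -0.18, SE 0.051, adjusted p-value 0.0366). Leaving out single mice ended that call in 9 of 12 fits, all but those without WT 4, WT 5 and cKO 8, with adjusted p-values of up to 0.0788 by limma. With the thalamic markers in the model Slc7a5 differed by -0.15 (adjusted p-value 0.222 by limma). It also did not pass with the thalamic and hypothalamic markers (0.0507 by limma), median centring (0.0550) or all genes above 0 (0.0644). The exact permutation test gave an adjusted p-value of 0.0641.

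Trhr, the receptor of thyrotropin-releasing hormone, was at 12.02 ± 2.002 CPM (SD, n = 7) and, in the libraries labelled cKO, higher at 16.7 ± 3.52 CPM (SD, n = 5). The limma fit gave 0.44 on the log2 scale (SE 0.13, adjusted p-value 0.0356). Trhr did not pass without WT 4, WT 6, WT 7, cKO 8, cKO 9 or cKO 14 (adjusted p-values 0.0576 to 0.0712 by limma), nor with the thalamic markers in the model (0.35 on the log2 scale, adjusted p-value 0.236). The Trhr call was also lost with the thalamic and hypothalamic markers (0.228 by limma) and without the 4 libraries lowest in Oxt (0.0535). The same held with all genes above 0 (0.0694 by limma) and in the exact permutation test (adjusted p-value 0.0506). Among coregulators, Trip4 was higher in every library labelled cKO (55.0 to 60.1 CPM against 48.7 to 54.8), by 0.17 on the log2 scale (SE 0.039, adjusted p-value 0.0135 by limma). Trip4 did not pass with the thalamic markers in the model (0.19, adjusted p-value 0.0609 by limma) or without the 4 libraries lowest in Oxt (0.14, 0.0886), and passed with the thalamic and hypothalamic markers (0.19, 0.0492). Ncoa3, a coactivator of nuclear receptors, was lower (log2 fold change -0.22, SE 0.051, adjusted p-value 0.0142 by limma), and passed in 24 of 26 alternative fits. It did not pass with the thalamic markers (-0.24, 0.0622) or with the thalamic and hypothalamic markers (-0.24, 0.0525) in the model. Dio3, the deiodinase that inactivates T3, had 0 to 11 reads per library, and Tshr, the thyrotropin receptor, was at 0.186 to 1.33 CPM, both under the CPM minimum. Fitted without that minimum, neither passed, with -0.10 for Dio3 (adjusted p-value 0.401 by limma) and 0.012 for Tshr (0.973). Log2(CPM + 1) flattens differences at such levels. The authors' deposited table gave -1.53 for Dio3 (FDR 0.376), so its size is not settled by so few reads. For Tshr that table gave 0.011.

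**Figure D3:**
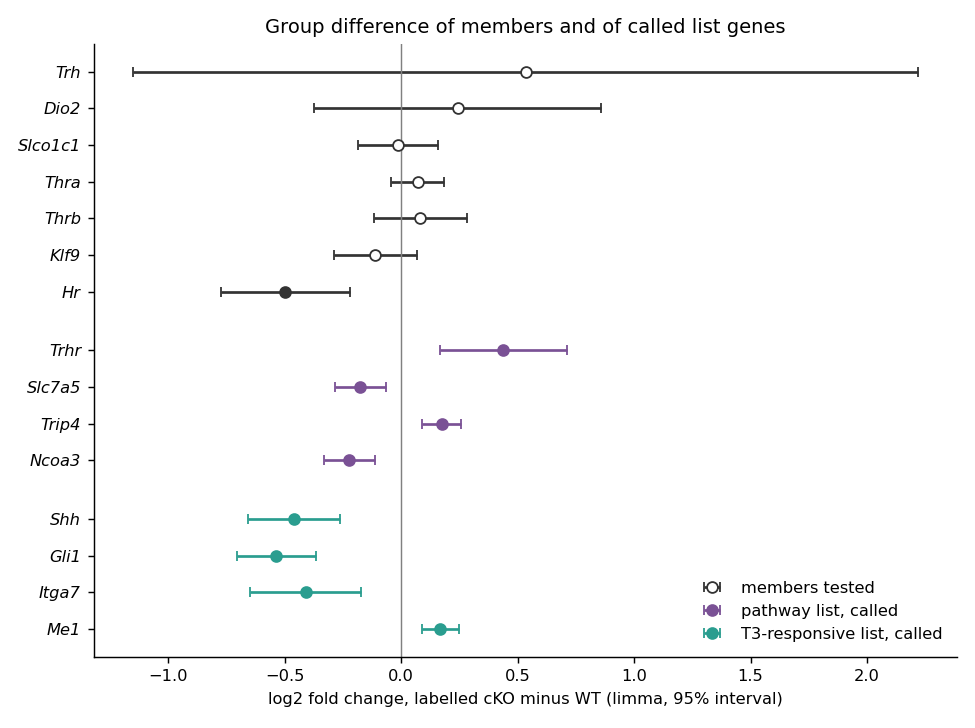
Limma log2 fold changes of the 7 tested members and of called genes of the axis list (4 shown) and of the T3-responsive list, with 95% intervals. Filled points passed an adjusted p-value of 0.05 and open points did not. Hr is the only filled member, at -0.50, and the Trh interval spans -1.15 to 2.22.

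Genes that T3 raises in brain formed a list of 18, without the members, of which 17 were tested and Cbr2 was under the CPM minimum. By limma 3 were lower, 1 was higher and 13 did not pass, which is 23.5% of those tested, against 14.1% of all genes. The median log2 fold change of the list was -0.060. Those that passed are also known for other roles. Shh encodes the hedgehog ligand and Gli1 a transcription factor that hedgehog signalling raises. Shh was at 13.4 to 15.9 CPM in the libraries labelled WT and 8.14 to 12.6 CPM in those labelled cKO (log2 fold change -0.46, SE 0.092, adjusted p-value 0.00836 by limma). Gli1 was at 14.5 to 20.6 CPM against 10.2 to 12.4 CPM (log2 fold change -0.54, SE 0.078, adjusted p-value 0.00294 by limma). The groups did not overlap for either gene, and both passed in all 26 alternative fits run.

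Itga7, an integrin subunit, was lower (log2 fold change -0.41, SE 0.11, adjusted p-value 0.0276 by limma), and its ranges of 22.02 to 30.8 and 14.98 to 23.9 CPM overlapped. By adjusted p-value it did not pass without WT 1 (0.0535), without cKO 8 (0.0533) or without cKO 14 (0.0650). Itga7 also missed the threshold with all genes above 0 (0.0537 by limma) and in the exact permutation test (adjusted p-value 0.0551). With the thalamic markers in the model its log2 fold change was -0.49 (adjusted p-value 0.0778 by limma), and with the thalamic and hypothalamic markers it passed (-0.43, 0.0479). Me1, the cytosolic malic enzyme, was higher by 0.17 on the log2 scale (SE 0.037, adjusted p-value 0.0131 by limma), at 54.9 to 58.4 CPM against 59.9 to 69.2 CPM. Me1 did not pass without the 4 libraries lowest in Oxt (0.13, adjusted p-value 0.0657 by limma) or with the thalamic markers (0.18, 0.0600), and passed with the thalamic and hypothalamic markers (0.20, 0.0319). With the thalamic markers in the model, Shh (-0.50) and Gli1 (-0.51) were the list genes that passed, where 4.41% of all genes did.

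**Figure D4:**
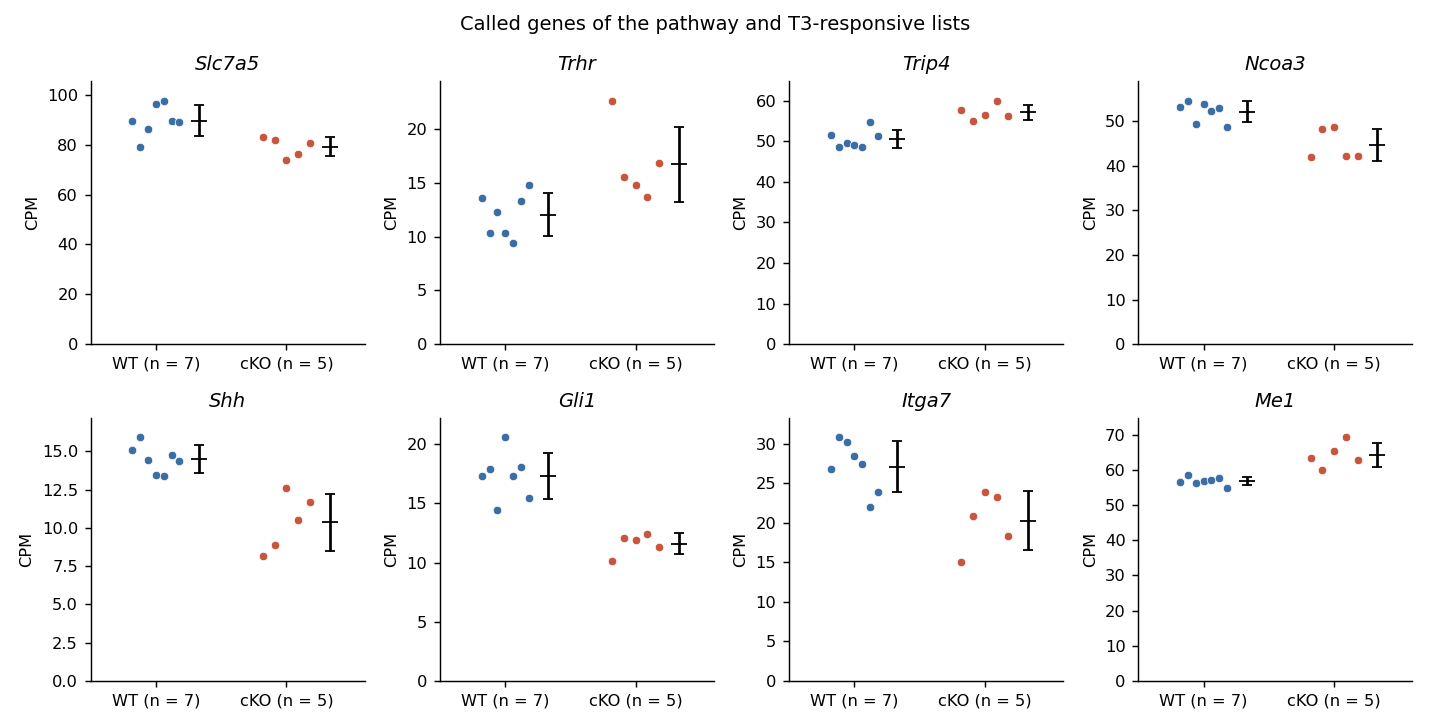
CPM of 4 called genes of the axis list (top row) and the 4 called genes of the T3-responsive list (bottom row) in each library, with the mean and SD of each group as a black bar and axes from 0. The groups do not overlap for Trip4, Shh, Gli1 and Me1.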

How the data were processed

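The authors deposited CPM for 32494 genes in 12 libraries, and, separately, log2 fold changes and p-values from a test of theirs. Per the submitters' processing notes, tools included bcl2fastq, FastQC 0.11.9, STAR 2.7.9a, SAMtools, Subread and featureCounts, while strand, genome build and annotation are not given in the sources used here. All values (100%) were whole multiples of 1 read within 0.001 reads, so reads were recovered. The CPM were scaled to library totals multiplied by factors of 0.987 to 1.02. These matched, library by library, the TMM (trimmed mean of M-values) factors of the recovered reads. The labels name no batch, litter or cage, so p-values measure the spread between these samples. The 31 replicate pairs differed beyond sampling noise, with a chi-square of 3.04 to 26.3 per degree of freedom.

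CPM are not counts, so limma 3.58.1 (R 4.3.3; eBayes with trend) on log2(CPM + 1) was the main test, which understates changes of low genes. It placed 1004 genes higher and 1168 lower, and median centring 1377 higher and 1054 lower. On recovered reads edgeR 4.0.16 called 2209 genes and DESeq2 1.42.0 called 2903. The fits were tested on simulated data, where DESeq2 made more false calls than its nominal rate. Genes were simulated independently with a single fixed dispersion. The simulation therefore cannot show the rate of false calls where libraries differ in many genes together, as these do. Marker scores added to the model were list means of log2(CPM + 1). Other alternatives changed the pseudocount, scaling, CPM minimum, weights or test, or left out each mouse. The genes named were the members, Smc3, Nr1d1, Dio3, Trhr and Tshr whatever their values, the called genes of the axis list (1 is not reported here) and of the T3-responsive list, and the 3 genes most like each tested member. Members, lists and tests were chosen with earlier results of these data known. Single marker genes were named after their values were seen.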

Additional observations from a re-analysis of the deposited data

Results flagged for a closer look

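Crym in cKO 12 stood apart from its group, at 1.31 CPM, where the other libraries labelled cKO were at 0.392 to 0.617 CPM. That value rested on 28 reads. It was the single library far from its group among 42 groups of values examined, where chance gives about 2.1, so it is no more than chance would give.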

How the results depend on the processing

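Of 182 alternative values for the 7 tested members, 168 kept direction and side of the threshold, 5 (all of Hr) lost the threshold and 9 changed sign, none of them a called value. With the thalamic markers in the model, 0 members, 1 axis gene, 2 T3-responsive genes and 678 of all genes (4.41%) passed. With the thalamic and hypothalamic markers, 0 members, 2 axis genes, 6 T3-responsive genes and 1373 of all genes (8.94%) passed. The exact permutation test passed 0 members (Hr at an unadjusted 0.00758), 3 axis genes, 3 T3-responsive genes and 11.1% of all genes. Sample weights passed 9 axis genes, 6 T3-responsive genes and 5126 of all genes (33.4%). The paraventricular markers (added after seeing the data) passed 8, 6 and 21.0%, and all genes above 0 gave 3, 3 and 4.86%. Main counts were 1, 5, 4 and 2172 (14.1%). Leaving out single mice gave 0 to 1 members, 3 to 6 axis genes, 3 to 4 T3-responsive genes and 1158 (without WT 1) to 2302 of all genes. Dio2 was at -0.075 without the 4 libraries lowest in Oxt (added after seeing the data), and at -0.011 to 0.53 over single mice left out. Slco1c1 was at 0.018 with both marker sets and at -0.074 to 0.045 over single mice left out. Klf9 was at 0.084 with the thalamic markers and 0.11 with both sets. The cause was not tested. Smc3 stayed between 0.64 and 0.74. No paired analysis was possible because the labels name no litter or cage by which mice of the 2 groups could be paired. Depth limits Crym (8 to 52 reads) and Dio3 (0 to 11 reads).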

Other observations

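Genes of the pituitary end of the axis were read at low levels. Tshb, the beta chain of thyrotropin, was at 1.39 to 2.12 CPM in the libraries labelled WT and 1.13 to 2.47 CPM in those labelled cKO, while Cga, its alpha chain, reached at most 0.296 CPM. The pituitary hormone gene Gh was at 0.269 to 3.06 CPM in the libraries labelled WT and ranged from 0.140 CPM in cKO 12 to 10.2 CPM in cKO 14. Of the 36 axis genes 32 did not have their 4 highest or 4 lowest values in the libraries lowest in Trh, while 3 were highest and 1 was lowest there. Over all tested genes 3.83% were highest and 2.71% lowest there, so 1 of 36 is near the background. Tshb had its 4 highest values in cKO 12, cKO 13, WT 4 and WT 5. The 1 gene lowest there was Trhde, which encodes the ectoenzyme that degrades thyrotropin-releasing hormone. It was at 10.6 CPM in cKO 13, 15.2 in WT 4, 15.8 in WT 5 and 15.9 in cKO 12.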
